A study of Rattus norvegicus with 2 samples.

Results

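Gpc3-Dcn interstitial fibroblasts of the rat cochlear duct were described in 2 droplet libraries, 1 of P1 (postnatal day 1) and 1 of P7 (postnatal day 7). The members were chosen by their own counts. A cell entered with at least 3 UMIs of Gpc3 and at least 5 of Dcn, with Otor below 1% of its UMIs, at most 2 UMIs of Aldh1a2 and no UMI of the division genes Top2a and Ube2c. UMIs are molecular tags, counted once for each captured RNA molecule. There were 3738 such cells among the 25360 kept cells of both libraries, 1338 of 12779 at P1 and 2400 of 12581 at P7, and the deposited matrices hold 28569 barcodes in all. A cell was kept with more than 500 and fewer than 5000 genes, 500 or more UMIs and less than 25% mitochondrial UMIs.

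Both libraries came from Sprague-Dawley rats with no named allele or agent, so the groups differed by label only in age. Each was made from pooled rats after most of the lateral wall and the spiral ganglion had been dissected away and dead cells removed with microbeads. The labels give no replicate of either age and no sex. Age and library therefore cannot be told apart and the ages could not be tested against each other. Every interval given is at the 95% level and covers counting error only.

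Interstitial fibroblasts build the loose connective tissue that carries vessels and nerves. They secrete fibrillar collagens such as types I and III, and decorin (Dcn), a small proteoglycan that binds collagen fibrils and controls their width. Glypican-3 (Gpc3) is a proteoglycan held on the cell surface, where it binds growth factors such as Wnt and Hedgehog proteins. In the cochlea, fibrocytes and mesenchymal cells line the fluid spaces around the sensory epithelium, and connexins and ion pumps of fibrocytes take part in the recycling of potassium.

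The members were checked against markers of epithelial, endothelial and bone-forming cells. Both libraries carry the cell type label greater epithelial ridge cell, yet the epithelial adhesion gene Epcam had 5.317 CPM (summed UMIs scaled to a common library total) in the members at P1 and 11.3 at P7, against 1217.9 and 2210.6 in the cells with at least 3 UMIs of Epcam. Of 9 endothelial markers only Emcn, an endothelial sialomucin, reached the level needed for testing, at 293.2 CPM and 349.4 CPM. Osteoblast-defining Sp7 had 1 UMI in the P1 members and 7 in the P7 members, while all 9 osteoblast markers summed to 94.16 and 233.5 CPM, against 27.58 and 95.72 CPM in all other kept cells.

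The markers given for the class were unevenly shared among its cells. Cells were thinned to 2000 UMIs to compare detection, and the share in macrophages, which should lack these genes, was taken as the level that free RNA gives (median depth 7525.5 and 6276.5 UMIs at P1 and P7, against 7105 and 7219 in the members). Lum, which encodes the collagen-binding proteoglycan lumican, was found in 37.68% of P1 and 37.72% of P7 members, against 0.9709% and 2.062% of macrophages. Edn3, the ligand endothelin 3, was found in 31.31% and 28.71% of the members and in 0 of 103 and 0 of 97 thinned macrophages, which allows shares of up to 2.913% and 3.093%. Vcan, the large matrix proteoglycan versican, was found in 51.09% and 45.75%, against 1.942% and 1.031%. Col6a1, a chain of the microfibrillar collagen VI, was found in 30.64% of the members at P1 and in 11.75% at P7, and in none of the thinned macrophages. Thus each of these 4 genes stood above the free RNA level, but most single members had no UMI of Lum, Edn3 or Col6a1 at this depth. Dcn, a gene of the rule, was found in 96.48% and 98.82% of thinned members, against 1.942% and 18.56% of macrophages.

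The values that chose the members are given as a description. The median member had 7 UMIs of Gpc3 at P1 and 11 at P7, and 17 and 41 of Dcn. Its share of UMIs on Otor, the secreted protein otoraplin, was 0.1258% and 0.2262%, and 96.26% and 97.75% of the members had no UMI of Aldh1a2, a retinoic acid synthesis enzyme. The limits on Gpc3 and Dcn together were met by 1717 cells at P1 and 2991 at P7. Of these, 310 and 395 had a UMI of Top2a or Ube2c, a further 40 and 173 had too much Otor, and a further 29 and 23 had too much Aldh1a2.

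Cells just inside and just outside the limits are given as a description. The 138 members with exactly 3 UMIs of Gpc3 had 366.2 CPM of Lum and 117 CPM of Edn3, and the 193 cells left outside with 2 UMIs had 339.4 and 122.3 CPM. At P7 the 102 members at the limit had 455.4 CPM of Lum and 147.1 CPM of Edn3, and the 117 cells just outside had 293.7 and 78.15 CPM. At the Dcn limit the 60 P1 members with exactly 5 UMIs had 100.1 CPM of Lum and 180.6 CPM of Edn3, and the 63 cells left outside with 4 UMIs had 62.39 and 101.1 CPM. At P7 the 36 members at this limit had 17.19 and 77.37 CPM, and the 39 cells just outside had 21.19 and 123.6 CPM. The cells outside thus had less of both genes at the P7 Gpc3 limit and the P1 Dcn limit. At the P7 Dcn limit both values were higher outside, but there Lum rests on very few UMIs in few cells. No interval was taken for these levels.

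The share of kept cells was 10.47% at P1 (exact binomial interval 9.945 to 11.01) and 19.08% at P7 (18.39 to 19.77). The ratio of the shares was 1.82, a log2 ratio of 0.87 with a counting interval from 0.77 to 0.96. The rule asks for a number of UMIs of Dcn, and Dcn itself was higher at P7 both in the members, by a log2 ratio of 1.19, and in all other kept cells, by 1.14. With cells thinned to 4000 UMIs and shallower cells left out, the shares were 7.862% of 10913 cells and 18.86% of 10417 cells. With limits of 2 UMIs of Gpc3 and 3 of Dcn they were 13.22% and 20.76%, and with limits of 5 and 10 UMIs 6.761% and 16.37%. The P7 share was the higher of the pair under each of these rules, by log2 ratios of 1.26, 0.65 and 1.28.

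**Figure D1:**
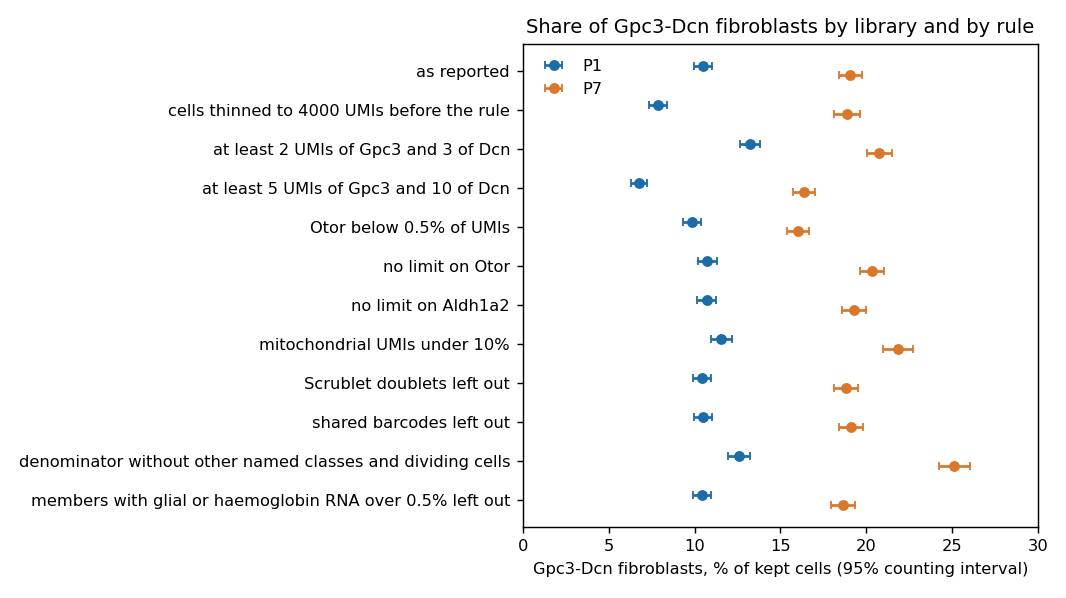
Share of Gpc3-Dcn fibroblasts among kept cells (x axis, percent) under the rule as reported and 11 other settings (y axis), with P1 in blue and P7 in orange and bars for the 95% counting interval. The P7 points sit between 16.02% and 25.12% and the P1 points between 6.761% and 13.22%, with no overlap.

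RNA of other cell types also differed between the libraries. The summed level of 9 glial markers in the members was 126.8 CPM at P1 and 1030.2 CPM at P7, against 782.5 and 4792 CPM in all other kept cells, and 6 of the 7 markers tested were higher at P7, among them the myelin gene Mbp (26.49 and 179.8 CPM). None of these markers was at 0. The summed level of 4 erythroid genes was 520.7 and 2492.8 CPM, and 4 of 4 were higher at P7. For 8 neuronal markers it was 234.3 and 62.49 CPM, and 5 of the 5 tested were lower at P7. Macrophage markers summed to 38.09 and 106.2 CPM. The locus LOC103694857, which is not among the 4 erythroid genes, had 325.4 and 2091.3 CPM. The 5 members at P1 and 70 at P7 with over 0.5% of their UMIs on glial or erythroid genes were left out in an alternative added after seeing the data, where the log2 ratio of P7 over P1 was 1.00 for Mbp, against 2.55 with them. Ribosomal protein genes took 21.53% of the members' UMIs at P1 and 15.16% at P7, and the median mitochondrial share was 6.415% and 8.279%. Scrublet called 69 members at P1 (5.157%, 4.034 to 6.481) and 185 at P7 (7.708%, 6.673 to 8.849) doublets. Of all kept cells it called 4.758% and 6.414%. Of the barcode sequences, 60 were in both libraries, 5 of them among the P1 members and 8 among the P7 members.

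The Y-linked gene Eif2s3y, which encodes a translation initiation factor subunit, had 64.68 CPM in the members at P1 and 1.622 CPM at P7. It was also lower at P7 in all other kept cells, at 68.05 and 10.75 CPM. The make-up of the pools by sex is not in the labels, and its part in the other differences was not tested.

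Genes that set the members apart from all other kept cells are listed as a description, since the members were picked by their own counts. After Dcn and Gpc3 the highest ratio in both libraries was that of Lepr, the leptin receptor, at 174.3 CPM in the members at P1 and 384.9 CPM at P7 (log2 ratios to all other cells of 2.79 and 2.94). Edn3 and Lum followed with 2.96 and 2.72 and with 2.65 and 2.66. The 15 leading genes also include Nell1, an osteogenic factor (2.37 and 2.29), Pltp, the phospholipid transfer protein (2.28 and 2.20), and Igfbp6, which binds insulin-like growth factors (2.74 and 2.19). Ramp3, a partner of the calcitonin receptor-like receptor, had 391.5 and 1241.4 CPM in the members and log2 ratios of 2.14 and 2.60. Col3a1, the chain of collagen III, had 2042.1 and 3824.3 CPM (1.95 and 2.08), and Thbd, the anticoagulant receptor thrombomodulin, 74.44 and 156.8 CPM (1.94 and 1.86). Aard, Vcan, Vstm4 and Cped1 completed the list, with ratios between 1.90 and 2.59.

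The Otor-high cells, with Otor at 1% or more of their UMIs, were the most numerous other mesenchymal class compared, with 2866 cells at P1 and 2303 at P7. Of 6882 genes tested, 210 were at least 2-fold higher in the members in both libraries (3.05%) and 113 were lower (1.64%). Among interstitial collagens 9 of 12 tested genes were higher in the members in both libraries and none was lower. Basement membrane genes were higher in 6 of 11 and genes of the insulin-like growth factor system in 6 of 10, for instance Igf2 at 173.1 CPM against 42.74 at P1 and 345 against 114.8 at P7. The opposite held for genes that mark cochlear fibrocytes, where none of 15 was higher and 6 were lower. These 6 include Otor, which the rule itself kept low in the members and high in the Otor-high cells. Coch, the gene of the matrix protein cochlin, had 11.79 and 22.16 CPM in the members against 284.1 and 164.6 in Otor-high cells, and Otos, which encodes the fibrocyte protein otospiralin, 2.9 and 16.81 against 143.9 and 1257.3. Wnt pathway genes were divided, with 2 of 14 higher and 5 lower in the members. These counts are descriptive, since Gpc3, Dcn and Otor chose both kinds of cell.

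Between the libraries, 459 of 7755 tested genes were at least 2-fold higher in the P7 members (5.92%) and 266 were at least 2-fold lower (3.43%). Ratios were taken of summed UMIs scaled to CPM with 5 CPM added to both, and a gene was tested with at least 10 CPM and 30 UMIs in the higher library. In this account a gene is said to have risen or fallen when it passed this 2-fold limit. The median log2 ratio over the tested genes was 0.11. Centred on it, 340 genes rose and 403 fell, and scaled without mitochondrial, ribosomal and haemoglobin genes 467 rose and 425 fell. Genes with a ratio just above the limit, such as Reck, Spon2, Il33, Efemp1, Pltp and Hspa1b below, no longer passed it after centring.

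**Figure D2:**
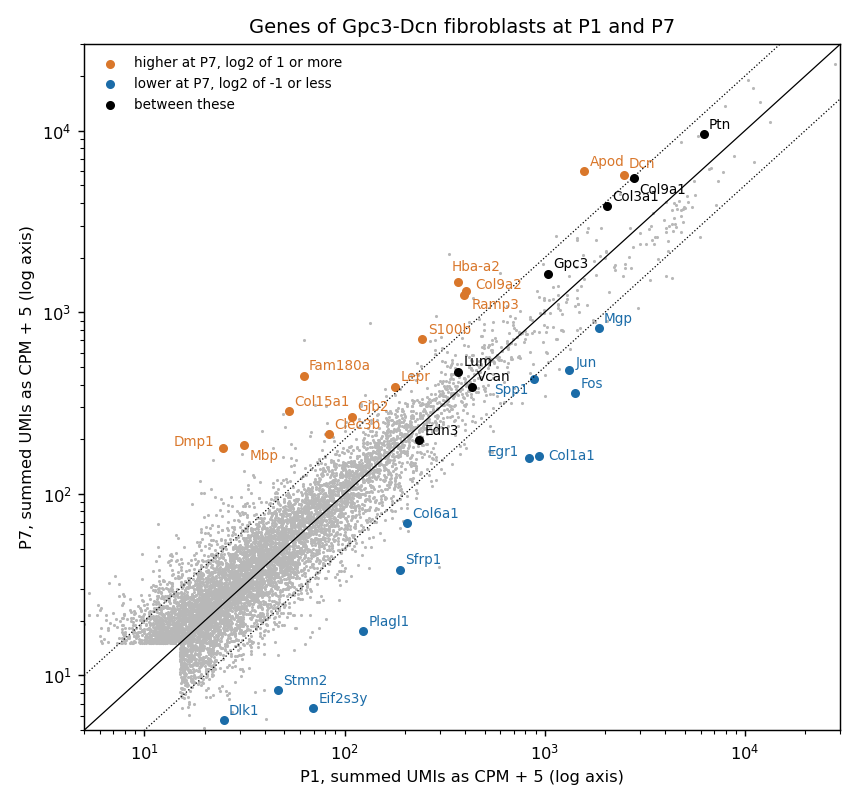
Summed level of each tested gene in Gpc3-Dcn fibroblasts at P1 (x axis) and P7 (y axis), both as CPM + 5 on log axes, with the solid line at equal levels and dotted lines at 2-fold. Apod and Col15a1 lie above the upper dotted line (orange), Col1a1, Plagl1 and Eif2s3y below the lower one (blue), and Gpc3, Lum, Vcan and Edn3 between them (black).

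Of the 6 marker genes, Dcn and Col6a1 passed the limit between the ages, in opposite directions. Dcn rose from 2472.7 to 5657.5 CPM, by a log2 ratio of 1.19, although it is a gene of the rule and its value is descriptive. Col6a1 fell from 199.3 CPM (190.8 to 208.1) to 63.68 CPM (60.09 to 67.42), by 1.57 on the log2 scale. The other 4 stayed within 2-fold. Gpc3 had 1031.7 and 1624.3 CPM, Lum 364.8 and 465.4, Vcan 426 and 384.1, and Edn3 230.6 and 192.8.

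Fibrillar and network collagens moved in both directions. Of 13 interstitial collagen genes tested, 2 rose and 4 fell. Their median log2 ratio was -0.41 in the members, 0.46 in Otor-high cells and -0.16 in all other kept cells. Over all genes tested in the members the median was 0.11. Col1a1, the main chain of collagen I, had 932 CPM at P1 (913.5 to 950.8) and 156.7 CPM at P7 (151.1 to 162.5). It fell by 2.53 on the log2 scale in the members, while in Otor-high cells it went from 18.96 to 53.61 CPM. Its log2 ratio was -1.70 in the Aldh1a2 cells, a class chosen by its UMIs of Aldh1a2, and -0.16 in all other kept cells. Col5a1 and Col5a2, whose products join collagen I fibrils, fell by 1.36 and 1.05, and Col6a1 as above. The 2 that rose were Col15a1, a collagen next to basement membranes, from 47.47 CPM (43.36 to 51.86) to 280.2 CPM (272.6 to 288), and Col1a2 from 9.764 to 32.32 CPM. The partner chain of collagen I thus had few UMIs in both libraries, and whether its reads were counted in full by the annotation used was not tested. Col3a1 was 0.90 higher at P7 on the log2 scale, short of the limit.

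Collagens of types II, IX and XI, the fibril set best known from cartilage and also found in the cochlea, rose or stayed. Of 6 genes tested 3 rose and none fell, with a median log2 ratio of 1.12. Col9a2 rose from 400.3 to 1302.7 CPM, Col11a1 from 298.6 to 723.1 CPM and Col11a2 from 17.5 to 90.54 CPM. Col9a1 was just short of the limit, at 2789.5 and 5480.3 CPM and a log2 ratio of 0.97. Of basement membrane genes 1 of 11 fell, Col4a2 of collagen IV, from 153.2 to 66.81 CPM, and none rose.

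Genes for folding and cross-linking collagen mostly stayed within 2-fold, as did most tested genes, of which 5.92% rose and 3.43% fell. Among 21 tested genes of collagen folding and cross-linking 2 rose and none fell. P3h3, a prolyl 3-hydroxylase family member, rose from 65.93 to 304.9 CPM and Plod1, a lysyl hydroxylase, from 83.43 to 190.2 CPM. Serpinh1, the collagen chaperone, had 932.6 and 1204.7 CPM, a log2 ratio of 0.37. Lox, which cross-links collagen and elastin, had a ratio of -0.90. Of 14 elastic fibre genes only Efemp1, a fibulin, rose, with a log2 ratio of 1.06 that was 0.94 after centring on the median gene. Of 6 small proteoglycan genes only Dcn rose, and Bgn, which encodes biglycan, had 352.4 and 491.2 CPM. Of 10 glypicans, syndecans and large proteoglycans only Sdc3 rose, by a log2 ratio of 1.01.

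Among secreted modifiers of the matrix, 3 of 18 matricellular genes rose and 4 fell. Mgp, the matrix protein that blocks calcification, fell from 1853.2 to 809 CPM, and Spp1, the phosphoprotein osteopontin, from 881.7 to 423 CPM. The log2 ratio of Spp1 was -1.05 and came short of the limit without Scrublet doublets (-0.99). The growth-factor-induced genes Ccn1 and Ccn2 fell by 1.03 and 1.19 on the log2 scale, although with limits of 5 UMIs of Gpc3 and 10 of Dcn the ratio of Ccn2 was -0.79. Matn4, a matrilin, rose from 263.1 to 689.6 CPM, and Thbs4 and Spon2 rose by log2 ratios of 1.44 and 1.05. Of 16 proteases and inhibitors, Htra1, a secreted serine protease, rose from 76.08 to 298 CPM and Mme, the peptidase neprilysin, fell from 337.5 to 140.7 CPM, while Reck, a protease inhibitor, had a log2 ratio of 1.01. Of 9 osteoblast markers 3 were tested, and Dmp1, a protein of mineralised matrix, rose from 19.62 CPM (17.02 to 22.52) to 174.7 CPM (168.7 to 180.8). Phex, a peptidase of bone cells, rose from 6.091 to 26.32 CPM, while Ibsp, bone sialoprotein, fell from 62.26 to 24.92 CPM.

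Among Wnt modulators 3 of 14 rose and 2 fell. Sfrp1, a secreted inhibitor that binds Wnt proteins, fell from 184 to 33.24 CPM, and its relative Sfrp4 rose from 14.89 to 96.22 CPM. Wnt5a, a ligand of the non-canonical pathway, rose from 29.78 to 121.6 CPM, and the inhibitor Wif1 rose from 8.507 to 27.46 CPM. The co-receptor antagonist Dkk2 fell from 20.98 to 2.811 CPM. Axin2 and Lef1, genes that canonical signals induce in many tissues, had log2 ratios of 0.01 and 0.26.

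In the BMP and TGF-beta list 1 of 16 genes rose and 2 fell. Bambi, a decoy receptor, rose from 39.06 to 174.7 CPM, the ligand Tgfb2 fell from 126.7 to 51.84 CPM, and the antagonist Fst from 15.95 to 4.595 CPM, a ratio of -1.13 that was -0.81 with cells thinned to 4000 UMIs. No gene of the endothelin system rose or fell among the 4 tested. Besides Edn3 these were the receptors Ednra (26.59 and 36.43 CPM) and Ednrb (39.06 and 79.62 CPM) and the activating enzyme Ece1 (41.96 and 82.43 CPM). Of 12 retinoid handling genes 4 rose and none fell. Aldh1a1, a retinaldehyde dehydrogenase other than the one in the rule, rose from 44.76 to 105.5 CPM, Rbp4, the retinol carrier of plasma, from 9.377 to 54.6 CPM, and the retinoic acid hydroxylase Cyp26a1 from 4.93 to 19.35 CPM.

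Ligands and receptors for other signals moved gene by gene. Of 19 cytokine and growth factor ligands 3 rose and 2 fell. Angptl4, an inhibitor of lipoprotein lipase, rose from 73.76 to 189.3 CPM, while the alarmin Il33 had a log2 ratio of 1.01. The chemokine Cxcl1 fell from 22.33 to 1.297 CPM and the opioid peptide precursor Penk from 63.81 to 12.43 CPM. Ptn, the heparin-binding factor pleiotrophin, was found in 99.63% and 100% of thinned members, against 36.89% and 58.76% of macrophages, and had 6212.3 and 9545.8 CPM, a log2 ratio of 0.62. Of 13 receptor genes, Lepr, Fgfr2 and the scavenger receptor Ackr3 rose by log2 ratios of 1.12, 1.12 and 1.68 (Lepr 0.98 with the limits of 5 and 10 UMIs), and Il6st, the shared receptor chain of interleukin 6 family cytokines, fell from 91.55 to 35.73 CPM. Kit, a receptor tyrosine kinase, was among the 12 genes with the largest rise, from 14.02 to 113.4 CPM, and its ligand Kitlg had 10.63 and 11.78 CPM.

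Of 17 tested genes described in fibroblasts of many organs, 7 rose and none fell, with a median log2 ratio of 0.75 in the members, 0.58 in Otor-high cells and 0.39 in all other kept cells. Clec3b, which encodes tetranectin, rose from 78.31 to 208.3 CPM, the actin-severing protein gene Gsn from 279.4 to 617.4 CPM and the peptidase gene Dpp4 from 12.95 to 38.76 CPM. Pi16, a marker of adventitial fibroblasts, rose from 13.34 to 36.59 CPM. Dpt, the matrix protein dermatopontin, had a ratio of 0.90.

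Of 16 genes that mark cochlear fibrocytes, 8 rose and none fell. Their median log2 ratio was 0.95 in the members, 0.36 in Otor-high cells and 0.62 in all other kept cells. S100b, a calcium-binding protein gene, rose from 239.8 CPM (230.4 to 249.4) to 705.9 CPM (693.8 to 718.1). The connexin genes Gjb2 and Gjb6 rose from 103.3 to 261.1 CPM and from 32.19 to 90.06 CPM, the sodium pump subunit Atp1b2 from 10.34 to 36.38 CPM and the water channel Aqp1 from 15.66 to 40.49 CPM. Otor-high cells had S100b at 1359.4 and 1900.1 CPM and Gjb2 at 65.41 and 185.4 CPM. Crym, a thyroid hormone-binding protein gene of the same list, had a ratio of -0.17, and Otor itself, a gene of the rule, of 0.60.

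Of 7 lipid carrier and prostaglandin genes tested 4 rose and none fell. Apod, the lipocalin apolipoprotein D, rose from 1570.8 CPM (1546.7 to 1595.1) to 5978.6 CPM (5943.4 to 6013.9), and Apoe from 589.5 to 1629.2 CPM. The log2 ratio of Apod was 1.92 in the members, 0.60 in Otor-high cells, 2.74 in Aldh1a2 cells and 0.98 in all other kept cells. In the members it was 1.95 without those rich in glial or erythroid RNA. Pltp rose by 1.08, or 0.96 after centring. Ptgds, a prostaglandin D2 synthase, had 2.127 and 30.27 CPM but a UMI in only 0.5243% and 1.184% of thinned members (0 and 1.031% of macrophages). Its ratio of 2.31 was 0.25 with cells thinned to 4000 UMIs. Of 10 antioxidant genes, Gpx3, a secreted glutathione peroxidase, rose from 51.33 to 173 CPM, and Fmo1 fell from 28.91 to 8.595 CPM.

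Of 37 mesenchymal transcription factors tested 3 rose and 3 fell. Pou3f4 and Tbx18, which are needed for the otic mesenchyme, had 459 and 359.1 CPM and 327.8 and 385.7 CPM, with ratios of -0.35 and 0.23. Sox9, the cartilage regulator, rose from 95.22 to 230.1 CPM and the tendon regulator Scx from 15.27 to 60.27 CPM. Dlx5 rose from 1.643 to 27.35 CPM, and Foxp1 fell from 46.5 to 16.05 CPM. Slco1c1, a thyroid hormone transporter, rose from 16.92 to 148 CPM.

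Of 12 imprinted growth genes 3 fell and none rose, with a median log2 ratio of -0.47 against 0.11 in Otor-high cells and -0.45 in all other kept cells. Plagl1, a zinc finger factor of this network, had 119.2 CPM at P1 (112.6 to 126) and 12.54 CPM at P7 (10.98 to 14.26), and was found in 16.63% and 2.03% of thinned members and in no thinned macrophage. Dlk1, which encodes a membrane protein of immature cells, fell from 19.82 to 0.6487 CPM and Mest from 62.36 to 16.59 CPM. Igf2 of the same network had a ratio of 0.97.

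Immediate early genes, which are switched on within minutes of a signal or of tissue handling, moved unevenly between the ages. Of 18 immediate early and heat shock genes 9 fell and 1 rose, with a median log2 ratio of -1.03 in the members, -0.57 in Otor-high cells and -0.69 in all other kept cells. Fos fell from 1411.7 to 353.7 CPM, Jun from 1313.4 to 474 CPM and Egr1 from 828.5 to 152.2 CPM. The antiproliferative gene Btg2 fell from 524.2 to 166.2 CPM, Ier2 from 526 to 230.8 CPM and Jund from 674.2 to 309.5 CPM. The heat shock gene Hspa1b rose from 13.63 to 32.97 CPM, and the immediate early genes Zfp36 and Nr4a1 had ratios of 0.30 and 0.17. Cells were dissociated with enzymes before capture, and the part of that step in these differences was not tested. Of 14 genes of the glucocorticoid and circadian list 6 fell and 1 rose, among them Zbtb16 (30.84 and 3.135 CPM), Fkbp5 (18.66 and 3.514 CPM) and Dbp, which rose from 28.04 to 107.3 CPM.

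The sequences before the start of 3 of these falling genes are shown because they share a short motif, the cAMP response element. They are the 250 bases before the start in the RefSeq annotation of build GRCr8, written 5′ to 3′ on the strand of the gene, with TGACGTCA in capitals. These letters read the same on both strands. The motif was chosen after the values were seen.
Jund (chr16:18769772-18770021, minus strand): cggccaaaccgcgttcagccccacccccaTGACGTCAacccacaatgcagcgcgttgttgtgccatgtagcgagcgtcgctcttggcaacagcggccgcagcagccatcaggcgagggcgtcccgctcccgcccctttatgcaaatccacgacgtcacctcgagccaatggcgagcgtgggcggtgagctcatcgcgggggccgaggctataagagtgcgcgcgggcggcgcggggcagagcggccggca
Ier2 (chr19:40399123-40399372, plus strand): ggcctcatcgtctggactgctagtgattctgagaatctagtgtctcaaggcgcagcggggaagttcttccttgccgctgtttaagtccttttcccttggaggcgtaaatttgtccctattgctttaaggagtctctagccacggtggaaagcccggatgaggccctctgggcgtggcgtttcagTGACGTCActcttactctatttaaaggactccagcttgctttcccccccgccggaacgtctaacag
Btg2 (chr13:48087691-48087940, minus strand): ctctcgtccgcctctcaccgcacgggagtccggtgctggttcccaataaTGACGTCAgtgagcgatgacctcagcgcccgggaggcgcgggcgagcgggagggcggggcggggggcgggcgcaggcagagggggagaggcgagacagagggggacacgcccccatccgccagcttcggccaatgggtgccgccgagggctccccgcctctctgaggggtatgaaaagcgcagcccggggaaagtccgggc
The motif began 221 bases before the start in Jund, 66 in Ier2 and 201 in Btg2. A promoter sequence was matched for 15 of the 20 listed immediate early and heat shock genes, and 4 of them held the motif, the fourth being Dusp1 at 124 bases, a gene with a log2 ratio of -0.92. Among all 33469 promoters of this length 531 held it (1.587%). Fosb, Junb and Egr1, which also fell, did not hold these letters in the window. A match is a description and was not tested as a binding site.

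For most genes the spread over the members was close to that of counting error. At few UMIs per cell such a spread does not show that a gene was evenly expressed. With 1321 P1 and 2322 P7 members thinned to 3000 UMIs, the median gene had a variance over mean of 1.05 and 1.03, where 1 is expected of counting error. A few genes stood far above this. The locus LOC103694857, which has no entry in the RefSeq table used, reached 341.23 at P1 and 485 at P7. It had 10 or more UMIs in 4 P1 and 22 P7 cells, with up to 858 in one P7 cell. The erythroid gene Hba-a2 had 10 or more in 4 and 20 cells, and whether these were the same cells was not tested. Among genes with a full symbol Apod reached 36.79 at P1 and 44.62 at P7, and at P1 Col1a1 reached 35.95, Mgp 14.03, Col3a1 10.84 and Col9a1 10.65. Gcg, the glucagon precursor gene, reached 22.44 at P7, with at most 71 UMIs in one cell.

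Col1a1, Apod and Col9a1 were shared unevenly among the members, and the shares differed between the libraries. A cell is called rich in one of them here with at least 10 of 3000 UMIs, a limit chosen after the spread was seen. Cells rich in Col1a1 made up 9.387% of the members at P1 (124 cells, 7.868 to 11.09) and 0.9905% at P7 (23 cells, 0.6289 to 1.483). Cells rich in Apod made up 12.26% at P1 (10.54 to 14.15) and 45.82% at P7 (43.78 to 47.87). Cells rich in Col9a1 made up 32.25% (29.73 to 34.84) and 58.66% (56.62 to 60.67). Col1a1 had no UMI in most members of either library, being found in 23.15% and 9.979% of the members thinned to 2000 UMIs (0 and 5.155% of macrophages), yet reached 144 UMIs in one P1 cell and 42 in one P7 cell. At P1 51.93% of the members were rich in none of the 3 genes, and at P7 15.42%.

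**Figure D3:**
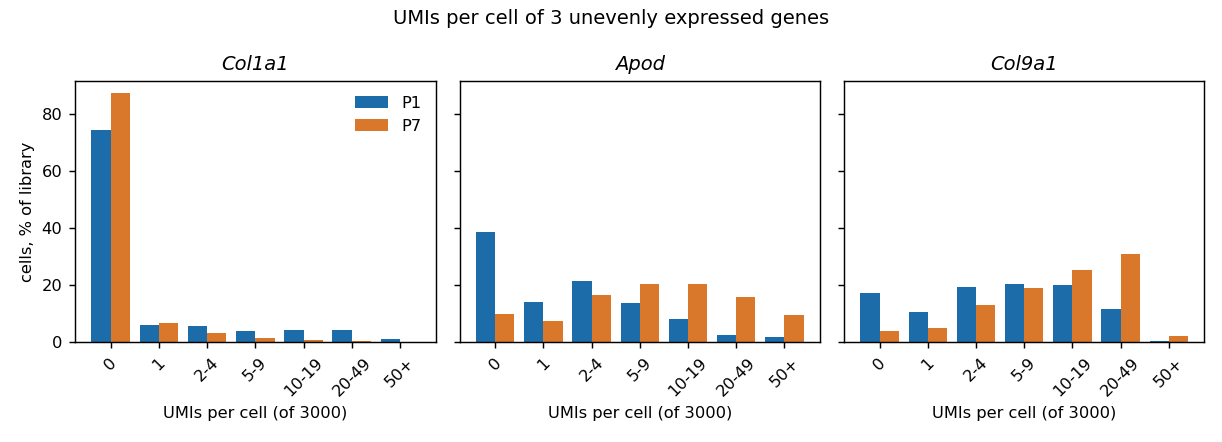
Share of Gpc3-Dcn fibroblasts (y axis, percent of the members of a library) by UMIs of Col1a1, Apod and Col9a1 per cell thinned to 3000 UMIs (x axis, bins), with P1 in blue and P7 in orange. Col1a1 is at 0 in most cells of both libraries with a tail at P1, while the P7 bars of Apod and Col9a1 are shifted to higher bins.

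Genes that varied with each of the 3 were taken from the P1 library only, the 8 with the highest correlation for each, so that the P7 values were not used for the choice. The P1 values are raised by this choice, and a lower r at P7 cannot be read apart from it. Correlations are Pearson's r of log(UMI + 1) across the 1321 P1 and 2322 P7 cells. They are descriptive, since the cells of a library share its preparation and depth. In the P1 members 0.01898% of all gene pairs had an r above 0.2. Col1a1 varied with Col3a1 (r = 0.52), Sfrp1 (0.51), Lum (0.43), Mgp (0.39) and Plagl1 (0.37) at P1. At P7 the same pairs had 0.02, 0.14, 0.15, 0.22 and 0.10. The mean r among the 9 genes was 0.27 at P1, where they were picked, and 0.05 at P7. Col1a1 had a UMI in 25.51% of these cells at P1 and in 12.62% at P7, which also limits r.

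Apod varied with the receptor partners Ramp1 and Ramp3 (0.36 and 0.34 at P1, 0.33 and 0.49 at P7), with Lgals1, which encodes galectin-1 (0.36 and 0.43), and with Igfbp7, a binding protein of basement membranes (0.35 and 0.51). The mean r within this set was 0.19 at P1 and 0.23 at P7. Col9a1 varied with Col2a1 (0.53 and 0.63), Col9a2 (0.45 and 0.62), Crym (0.50 and 0.45), Matn4 (0.39 and 0.51) and Spp1 (0.36 and 0.37), with means of 0.28 and 0.30. Between the Apod and Col9a1 sets the mean was -0.14 at P1 and -0.20 at P7, and the lowest pair was Apod with Spp1 at -0.44 and -0.49. Col3a1, which went with Col1a1 at P1, had an r with Apod of 0.18 at P1 and 0.51 at P7.

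**Figure D4:**
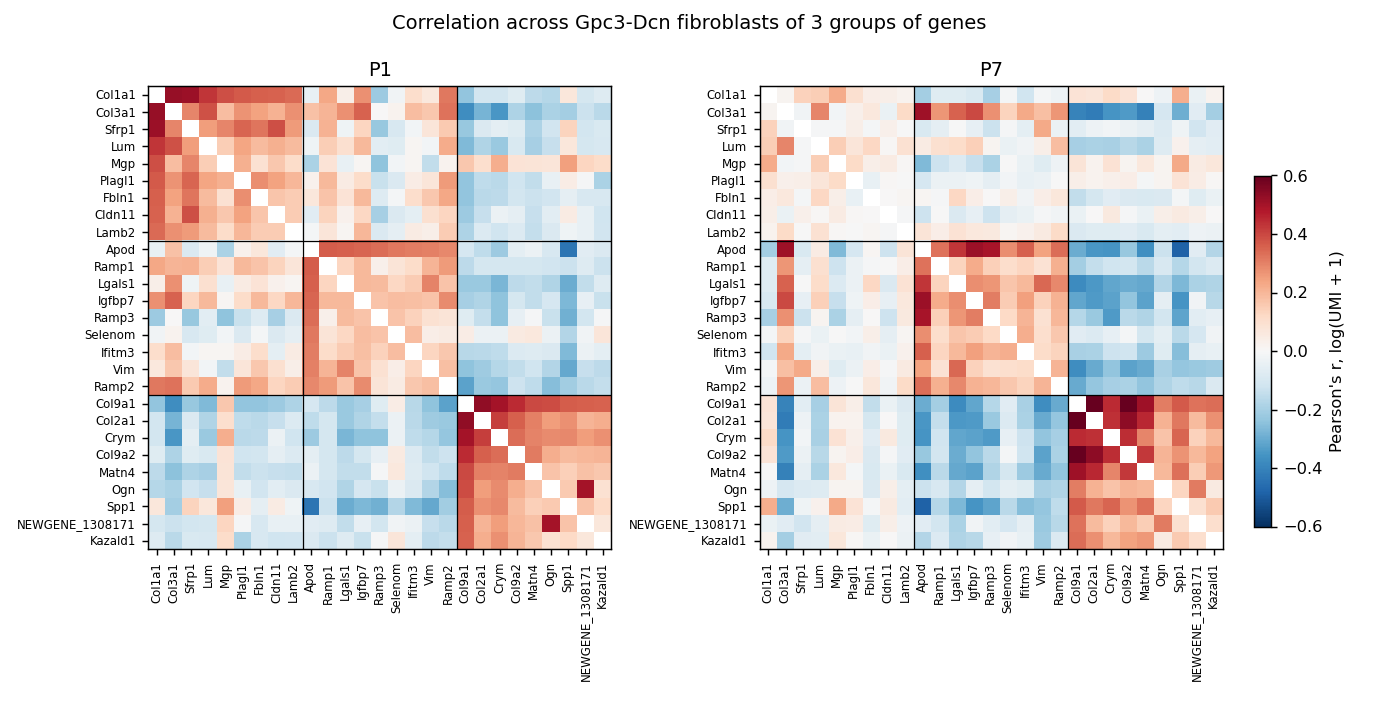
Pearson's r of log(UMI + 1) across Gpc3-Dcn fibroblasts thinned to 3000 UMIs, for 3 sets of 9 genes on both axes, at P1 (left) and P7 (right), with red positive and blue negative. The Col9a1 set is red within itself in both libraries and blue against the Apod set, while the Col1a1 set is red at P1 and pale at P7. All 3 sets were picked by their r at P1.

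The cells rich in Col1a1, Apod or Col9a1 differed from the rest of the members in other genes too, which is given as a description of these libraries. Against the rest of the P1 members the Col1a1-rich cells had Sfrp1 at 793 CPM (142.9 in the rest), Lum at 1217.7 CPM (301.6), the tight junction gene Cldn11 at 274.2 CPM (56.81) and Dlk1 at 217.7 CPM (1.671). Smoc2, a calcium-binding matrix protein gene, had 67.2 CPM against 3.62 at P1, and 101.4 CPM against 6.235 in the 23 such cells at P7. Gdf10, a ligand of the BMP family, had 150.5 against 40.1 CPM at P1 and 260.9 against 50.02 CPM at P7. Aldh1a1 was the other way, at 2.688 against 45.11 CPM at P1 and 14.49 against 112.8 CPM at P7. Col15a1 had 8.065 against 61.26 CPM and 28.99 against 298.1 CPM. In the Col1a1-rich cells the levels of Aldh1a1 and Col15a1 rest on very few UMIs at both ages, as does that of Smoc2 at P7.

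In the cells rich in Apod, Clec3b had 207.8 CPM against 57.23 in the rest at P1 and 351.5 against 112.3 at P7, Dpp4 30.86 against 10.07 and 81.14 against 10.86, and Col15a1 127.6 against 46.3 and 502.8 against 120. The alarmin Il33 had 65.84 against 5.177 CPM and 56.39 against 11.92 CPM. Spp1 and Mme were lower in these cells, with Spp1 at 197.5 against 1028.5 CPM and 122.2 against 635.7 CPM and Mme at 39.09 against 380.5 CPM and 42.61 against 215.7 CPM. Col14a1, a collagen of fibril surfaces, had 59.67 against 184.6 CPM and 31.64 against 155 CPM.

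In the cells rich in Col9a1, Col2a1 had 621.3 CPM against 155.7 in the rest at P1 and 873.5 against 162.5 at P7, and Crym 2018 against 665.9 and 1391.6 against 431.2. Scx had 27.39 against 11.92 CPM and 71.95 against 34.72 CPM, and Ibsp 99.37 against 44.32 CPM and 34.26 against 6.25 CPM. Vtn, which encodes vitronectin, had 3.13 against 32.4 CPM and 6.608 against 98.26 CPM, the first of these levels resting on few UMIs. Cells rich in both Apod and Col9a1 were 2.347% of the P1 members and 20.2% of the P7 members, so these sets overlap and do not divide the class.

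The ages were also compared in the members without a UMI of Col1a1, an alternative chosen after the values were seen. It leaves out every member with a UMI of Col1a1, not only those rich in it, and whether these cells account for any difference was not tested. In this alternative Mgp had a log2 ratio of -0.85 in place of -1.19, Cldn11 of -0.29 in place of -1.52 and Dlk1 of -0.21 in place of -2.14. Of 121 named genes past the limit 106 still passed it in these cells. In the same cells Sfrp1 fell by 1.86, Plagl1 by 2.44 and Col6a1 by 1.43, and Col3a1 rose by 1.39. Fos fell by 2.13 and Apod rose by 2.31. Over all tested genes 496 rose and 256 fell in these cells.

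The ages were also compared within Otor-high cells, which come from the same 2 libraries, and both kinds of ratio are given side by side. Of 6655 genes compared, 618 passed the limit in the members. In Otor-high cells 401 of these passed it in the same direction and 2, Col1a1 and Cldn11, in the opposite one, and since the libraries are shared the first count is no independent evidence. Further genes that differed in size were Plagl1 (-2.82 in the members and -0.19 in Otor-high cells), Col15a1 (2.44 and 0.94), Apod (1.92 and 0.60), Tgfb2 (-1.21 and 0.32) and Spp1 (-1.05 and 0.72). Others moved more in Otor-high cells, such as Otos (1.47 and 3.08) and Igfbp3, which binds insulin-like growth factors (-0.21 and 1.90). Dmp1 (2.87 and 2.96), P3h3 (2.13 and 2.39), Bambi (2.03 and 2.01) and Egr1 (-2.41 and -2.24) were close in both kinds of cell. In the Aldh1a2 cells the ratio was -1.70 for Col1a1, 2.74 for Apod, 1.19 for Col15a1 and -0.67 for Plagl1.

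**Figure D5:**
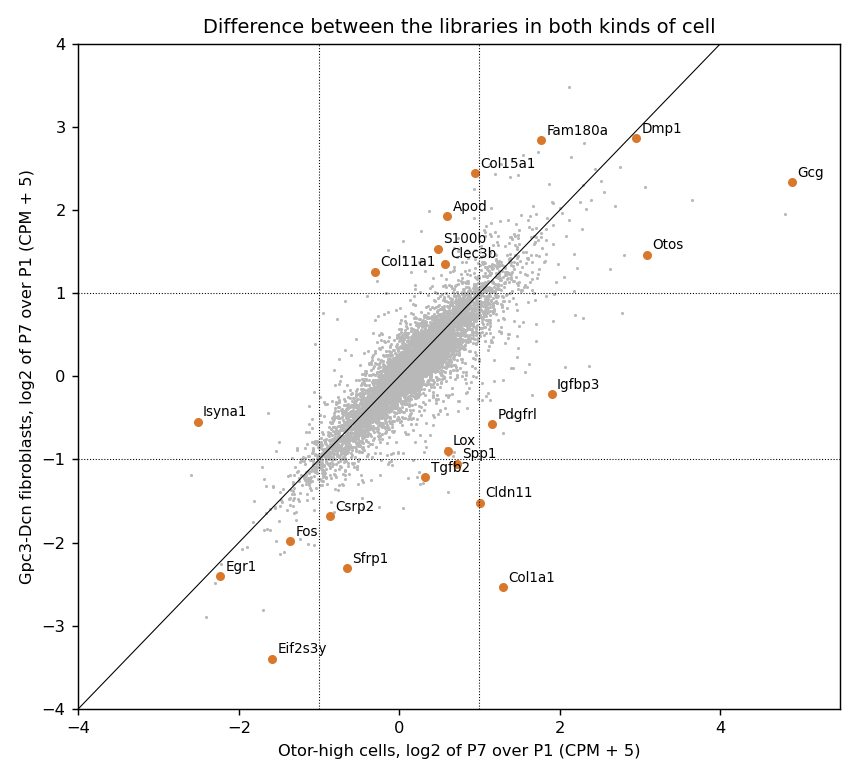
Log2 ratio of P7 to P1 (CPM + 5) of each gene in Otor-high cells (x axis) and Gpc3-Dcn fibroblasts (y axis), with the solid line at equal ratios and dotted lines at 2-fold. Col1a1 and Cldn11 lie in the lower right corner (-2.53 and 1.29, -1.52 and 1.01 for the members and the Otor-high cells), and Apod and Col15a1 lie above the solid line.

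Further lists are given by their counts, beside the 5.92% of all tested genes that rose and the 3.43% that fell. No gene of 11 complement genes passed the limit in either direction, and none of 7 markers of the Aldh1a2 mesenchyme. Of 13 channel, pump and connexin genes 5 rose, the connexin gene Gja1 from 18.85 to 45.84 CPM besides Gjb2, Gjb6, Aqp1 and Atp1b2. Of 10 markers of meningeal barrier fibroblasts 3 rose and 1 fell, and of 17 cell cycle genes 1 rose and 2 fell. The rule left out cells with Top2a, Ube2c or more than 2 UMIs of Aldh1a2 in both libraries. The counts for cell cycle genes and for the Aldh1a2 mesenchyme are therefore descriptive only. Of 81 ribosomal protein genes 8 fell and none rose.

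The study's own list of PI3K-Akt pathway genes for one of its clusters was chosen on these libraries and is no independent evidence of a direction. Of its 11 tested genes 5 fell in the members and none rose. Among them were Col1a1, Col6a1, Col4a2 and Spp1. The pathway's ligand Igf1 had 520.5 and 507.4 CPM. Of the 4 genes the study names for apoptosis 2 fell, Fos and Jun.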

How the data were processed

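Cells of the dissected cochlear duct, pooled from Sprague-Dawley rats, were sequenced as 1 library at P1 and 1 at P7 with the 10x Chromium 3' chemistry. The deposited values are raw UMI counts per gene and barcode, which the authors made with bcl2fastq and Cell Ranger 3.1.0 (matrix header) on the rat genome rn6, without normalization. The submitters' processing notes also name Seurat 3.1.1. The sources used here state no removal of doublets or of free RNA. Counts were read for 26976 genes. Member UMIs summed to 10343970 at P1 and 18499802 at P7. The members, 48 gene lists and tests were chosen with earlier results of these data known.

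Counts of the members were summed per library and scaled to CPM, and 5 CPM were added as a pseudocount before log2 ratios were taken. Genes of at least 10 CPM and 30 UMIs in the higher library were compared, and a log2 ratio of 1 in size was called. With 1 library per age no test was run. Intervals are exact (Clopper-Pearson for shares, Poisson for counts, 95%), and an interval of a CPM covers counting error only, as does the limit of 3 counts behind a share of 0. A rest of members means those thinned to 3000 UMIs that do not meet the limit. Cells left out as too shallow numbered 17 at P1 and 78 at P7 for 3000 UMIs, and 3 and 35 members for 2000 UMIs. Comparison classes were Otor-high cells and cells with at least 3 UMIs of C1qa (macrophages) or of Epcam (epithelial), outside the members and in 1 class only. Aldh1a2 cells were a further such class, with at least 3 UMIs of Aldh1a2 and Otor below 1%. They numbered 815 at P1 and 255 at P7.

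Named were the 6 markers, the 15 genes with the largest ratio to all other cells in both libraries (at least 50 CPM), the 12 with the largest ratio between the ages in each direction (at least 200 UMIs), up to 6 of each list by level or ratio, the 12 most variable genes of each library with their closest partner, and the genes of the rule. Other genes were named after their values were seen, among them further list members, the partners in the 3 gene sets, the genes of cells rich in Col1a1, Apod or Col9a1, and those compared with Otor-high cells. Alternatives were other limits of the rule, depth, doublets by Scrublet, shared barcodes, pseudocounts, scalings and filters, and 2 were added after seeing the data, without members rich in glial or erythroid RNA and with members lacking Col1a1 only. Some items are not reported here. Steps were tested on simulated data. Promoters came from a RefSeq table of build GRCr8. Python 3.11.15, numpy 2.4.6, scipy 1.17.1, pandas 2.3.3, scanpy 1.11.5 (Scrublet) and matplotlib 3.10.9 were used.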

Additional observations from a re-analysis of the deposited data

Results flagged for a closer look

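Of the genes compared in both kinds of cell, 2 passed the 2-fold limit in opposite directions between the ages. Col1a1 had a log2 ratio of P7 over P1 of -2.53 in the Gpc3-Dcn fibroblasts (932 and 156.7 CPM). It was 1.29 in the Otor-high cells (18.96 and 53.61 CPM), -1.70 in the Aldh1a2 cells and -0.16 in all other kept cells. Cldn11, a tight junction gene, had -1.52 (67.87 and 20.38 CPM) and 1.01 (57.3 and 120.3 CPM). With 1 library per age neither difference was tested.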

How the results depend on the processing

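No paired analysis was possible because each age has 1 library and the labels give no replicate numbers. The P7 share was the higher under every setting run. With cells thinned to 4000 UMIs the P1 share and the log2 ratio moved beyond their counting intervals to 7.862% and 1.26, while the P7 share of 18.86% did not. Shares at P1 and P7 and their log2 ratio all moved to 13.22%, 20.76% and 0.65 with limits of 2 UMIs of Gpc3 and 3 of Dcn, to 6.761%, 16.37% and 1.28 with 5 and 10, to 9.852%, 16.02% and 0.70 with Otor below 0.5%, and to 12.59%, 25.12% and 1.00 with other named classes and dividing cells out of the denominator. The P7 share was 20.33% with no limit on Otor, and the shares were 11.57% and 21.83% with mitochondrial UMIs under 10%. Genes that rose and fell numbered 694 and 466 with a pseudocount of 1 CPM, 147 and 89 with 20 CPM, and 191 and 133 of 3163 with a filter of 50 CPM. Those that fell numbered 403 after centring and 425 when scaled without mitochondrial, ribosomal and haemoglobin genes. The causes were not tested, beyond the filter testing fewer genes. Of 122 named genes past the limit, 75 kept their call with a pseudocount of 20 CPM, 108 after thinning and 106 of 121 in members with no UMI of Col1a1. Ptgds reversed to -1.20 without the limit on Aldh1a2. Depth leaves genes with few UMIs per library with wide intervals, and pooled rats leave the spread between animals unknown.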
